A study of Chlamydomonas reinhardtii with 12 samples.

Results

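The plastid terminal oxidases PTOX1 (Cre07.g350750) and PTOX2 (Cre03.g172500) of the green alga Chlamydomonas reinhardtii were followed by transcript level in 12 libraries. Both were taken by their identifiers, not by any measured value, and they are 2 of the 17744 identifiers in the deposited count table. Both identifiers were present. The mutant cells were phytoene desaturase knockouts (PDSKO), made with Cas9 ribonucleoprotein and a co-introduced plasmid, in 3 transformant lines. Line E10 gave 4 libraries (PDSKO 1 to 4), line A2 gave 1 (PDSKO 5) and line D2 gave 1 (PDSKO 6). They were set against the parental line labelled CC-3403 (WT), with 6 libraries. The titles of WT 1 to 3 carry a strain number other than that of this label. Whether all 6 WT libraries are of the same strain is not known. All cultures were liquid, labelled as vegetative cells, and kept in darkness at 25 °C for 4 weeks in acetate medium. Knockout cells had no added arginine and were sorted by flow cytometry, whereas WT cells had 10 µg/mL arginine and no sort is stated for them, so medium, sorting and plasmid cannot be told apart from genotype. By their titles, WT 1 to 3 and E10 form one set of libraries, and WT 4 to 6, A2 and D2 form another.

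Plastid terminal oxidase is a diiron enzyme of the thylakoid membrane that takes electrons from plastoquinol and passes them to oxygen. Phytoene desaturase, encoded by PDS1, passes the electrons of its reaction to plastoquinone, so plastoquinol oxidation is tied to carotenoid synthesis in organisms that carry the oxidase. In Chlamydomonas, PTOX2 is known as the main oxidase of chlororespiration, the light-independent electron flow through the plastoquinone pool, and PTOX1 has been proposed to serve carotenoid synthesis.

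Depth set what could be seen. Total counts ran from 6279 to 475103 in PDSKO libraries and from 1393032 to 35992976 in WT libraries. The 4 E10 libraries together held 81142 counts. A single identifier, Cre07.g323800, took 43.3% of the counts of A2, so A2 levels are also given with it taken out of every total. PDS1, the targeted gene, was at 0, 319, 0 and 122 CPM (counts per 1000000 of the library total) in E10 libraries 1 to 4, from 0, 2, 0 and 2 counts, and at 0 in A2 and in D2, against 21.6 to 113 CPM in WT. Pooled over E10 it was 49.3 CPM (95% Poisson interval 13.4 to 126), within the WT range, so PDS1 counts showed no loss in E10. Where the edit lies is not given and 3′ ends need not lie in it, so they do not check the E10 label. Of the markers, the gamete gene GSP1 was at 0 in all PDSKO libraries and at 1.86 to 13.7 CPM in WT, and GSM1 was at 0 in all PDSKO libraries and at 0 to 2.87 CPM in WT. The zeros had Poisson upper limits of 7.76 CPM in A2 and 91.2 to 587 CPM in the other PDSKO libraries. The A2 limit lay below the GSP1 level of WT 1 (13.7 CPM) and WT 4 (12.4 CPM) and above that of the other WT libraries. For GSM1, and for GSP1 outside A2, every limit lay above all WT levels, so no difference was detectable there. The housekeeping gene CBLP was at 2548 to 5194 CPM in E10, 88.4 in A2 (156 without Cre07.g323800) and 388 in D2, against 1866 to 2761 CPM in WT 1 to 3 and 141 to 419 CPM in WT 4 to 6 (149 to 428 without it). Its level was thus not even over WT, and CBLP gives no even reference for the other levels. The counts are of transcript 3′ ends and are not divided by length, so a CPM value compares libraries for a gene and not PTOX1 with PTOX2.

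PTOX1 was counted in all 12 libraries. Its raw counts were 2, 2, 1 and 1 in E10 libraries 1 to 4, 75 in A2 and 6 in D2, against 1895, 5368, 2521, 1228, 267 and 192 in WT 1 to 6. As levels these were 49.5, 319, 55.2 and 61.2 CPM in E10, 158 CPM in A2 and 166 CPM in D2, against 63.0, 149, 177, 104, 99.5 and 138 CPM in WT 1 to 6. The groups overlapped: A2 and D2 lay between WT 2 and WT 3, and the highest E10 value, that of PDSKO 2, rested on 2 counts.

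PTOX2 was counted in 3 of 6 PDSKO libraries and in all 6 WT libraries. Its raw counts were 2, 0, 0 and 0 in E10 libraries 1 to 4, 31 in A2 and 4 in D2, against 3696, 3078, 1128, 1124, 220 and 117 in WT 1 to 6. As levels these were 49.5, 0, 0 and 0 CPM in E10, 65.2 CPM in A2 and 111 CPM in D2, against 123, 85.5, 79.4, 95.5, 82.0 and 84.0 CPM in WT 1 to 6. All E10 libraries and A2 lay below the lowest WT library, and D2 lay within the WT range. The 3 zeros came from the shallowest libraries, in which the WT mean level would have given 0.575, 1.66 and 1.49 counts, so loss of PTOX2 in them was not detectable at this depth.

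**Figure D1:**
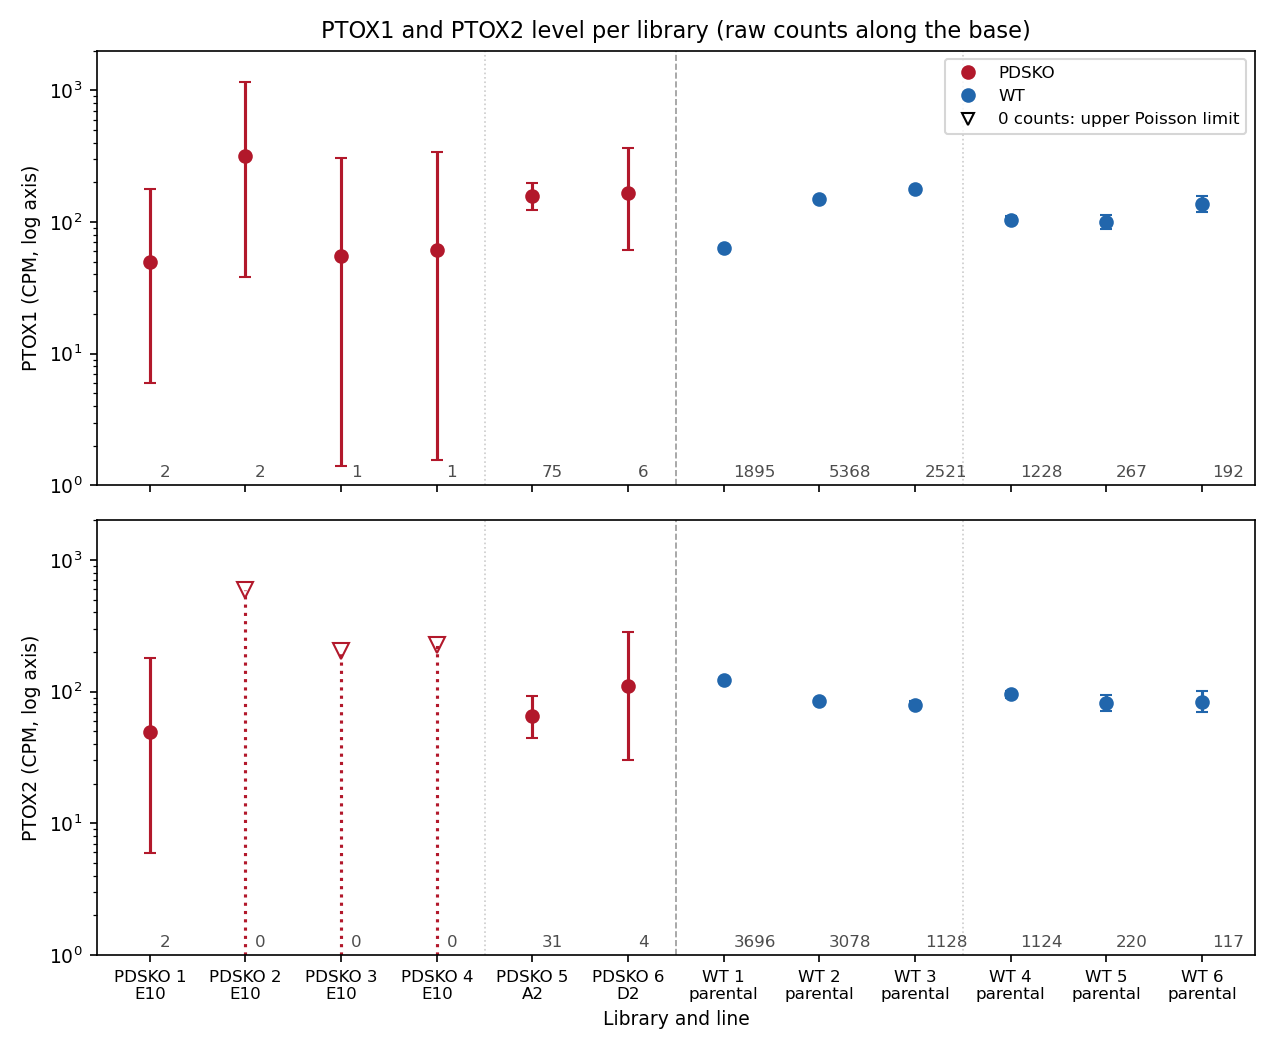
Level of PTOX1 (upper panel) and PTOX2 (lower panel) in CPM on a log axis, by library, with exact 95% Poisson intervals from the raw counts written along the base and open triangles at the upper limit of libraries with 0 counts. The E10 intervals are far wider than those of WT, and only PTOX2 has libraries at 0, all 3 of them of line E10.

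Pooled by line, PTOX1 stood at 166 CPM in D2 (95% Poisson interval 61.1 to 362), 158 CPM in A2 (124 to 198) and 73.9 CPM in E10 (27.1 to 161), against 129.9 ± 59.6 CPM in WT 1 to 3 and 113.9 ± 20.9 CPM in WT 4 to 6 (SD, n = 3 each). From the top the order was D2, A2, WT 1 to 3, WT 4 to 6 and E10, and no neighbours in it differed beyond these errors. By the mean of its library levels, E10 stood at 121 ± 132 CPM (SD, n = 4), above WT 4 to 6, so its place depended on how its 6 counts were averaged. The intervals cover counting error only. Without Cre07.g323800 in the total, A2 stood at 278 CPM (219 to 349), above the 174 CPM of D2 (63.9 to 379) and the 107, 104 and 146 CPM of WT 4 to 6 on the same basis.

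PTOX2 stood at 111 CPM in D2 (30.2 to 284), 65.2 CPM in A2 (44.3 to 92.6) and 24.6 CPM in E10 (2.99 to 89.0), against 95.9 ± 23.5 CPM in WT 1 to 3 and 87.2 ± 7.31 CPM in WT 4 to 6 (SD, n = 3 each). From the top the order was D2, WT 1 to 3, WT 4 to 6, A2 and E10, and here too no neighbours differed beyond these errors. The E10 interval contained the WT 4 to 6 mean and ended below the WT 1 to 3 mean. The 4 E10 libraries together held 2 PTOX2 counts and 6 PTOX1 counts, where the WT mean levels would have given 7.43 and 9.89. Without Cre07.g323800 in the total, A2 stood at 115 CPM (78.1 to 163), against 97.6, 85.9 and 88.7 CPM in WT 4 to 6, so the place of A2 relative to WT turned with that identifier.

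Across all libraries, neither oxidase differed between PDSKO and WT by a test that held after adjustment. PTOX1 averaged 134.8 ± 104.2 CPM in PDSKO and 121.9 ± 40.9 CPM in WT (SD, n = 6 each), and an exact two-sided permutation of the group means gave p = 0.825, or 0.854 with libraries exchanged only within title sets. PTOX2 averaged 37.6 ± 45.9 CPM in PDSKO and 91.5 ± 16.3 CPM in WT (SD, n = 6 each). This difference of -53.9 CPM had an exact permutation p of 0.0281, or 0.0143 with libraries exchanged only within title sets, and 5 of 6 PDSKO libraries lay below the lowest WT library. Adjusted over the 6 permutation tests made on the pair, p was 0.169. The difference rested on the E10 libraries: with E10 summed to 1 library it was -24.6 CPM with an exact permutation p of 0.25, and with E10 left out it was -3.46 CPM with an exact permutation p of 0.893. The unadjusted call also ended without PDSKO 2, 3 or 4 (-46.4 CPM, exact permutation p = 0.0519 each), without WT 1 (-47.7 CPM, p = 0.0628 by the same exact test) and without Cre07.g323800 in the totals (-47.4 CPM, exact permutation p = 0.0779). In these bulk samples fewer cells of a kind and less RNA per cell cannot be told apart.

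Neither oxidase passed in the model fitted over all identifiers. In edgeR's quasi-likelihood test on all 12 libraries, scaled by TMM (a trimmed-mean correction of library size), 0 of 4915 identifiers passed a Benjamini-Hochberg adjusted p of 0.05 (0% called), 1006 had an unadjusted p under 0.05, and DESeq2 called 358. Without PDSKO 1 the edgeR count was 632. PTOX1 had a log2 fold change of -0.02 ± 0.69 (SE, 95% interval -1.43 to 1.39, adjusted p = 0.993). PTOX2 had -0.70 ± 0.73 (interval -2.21 to 0.80, adjusted p = 0.595). The median over all identifiers tested was -0.38, so that PTOX1 lay 0.36 above it and PTOX2 0.33 below it on the log2 scale. The sign of PTOX1 depended on the scaling, since it was 0.69 with DESeq2's size factors used in edgeR and 0.10 with library totals alone, whereas its distance from the median of all identifiers, 0.41 and 0.34, kept its sign. PTOX2 lay below that median by 0.38 and 0.49 under the same scalings, but by 0.64 without A2, and it was 0.076 above the median with E10 summed to 1 library. The distance of PTOX1 ran from 0.081 without A2 to 0.81 with E10 summed. With title set as a factor, 0 identifiers were called, PTOX1 was at -0.22 and PTOX2 at -0.93 (edgeR adjusted p = 0.871 and 0.451).

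Line A2 and line D2, with 1 library each, were also set against the WT libraries of their own title set. Here 874 of 8042 identifiers passed (10.9% called, 272 higher and 602 lower), and both oxidases were tested and neither passed. Single libraries moved this count: leaving out WT 4, WT 5 or WT 6 gave 13, 71 and 127 calls, and leaving out D2 gave 2486. PTOX1 had a log2 fold change of 0.15 ± 0.86 (SE, 95% interval -1.65 to 1.95, edgeR adjusted p = 0.915). PTOX2 had -0.47 ± 0.86 (interval -2.29 to 1.34, edgeR adjusted p = 0.730). The median over all identifiers was -0.92, with PTOX1 1.07 and PTOX2 0.44 above it. With DESeq2's size factors that median was -0.42, PTOX2 turned to 0.06, and the distances from the median were 1.09 and 0.48. These distances depended on the libraries and the filter: they were 1.73 and 1.09 without a filter, 7.07 and 6.89 without A2, where the median was -7.58, and 1.71 and 0.85 without D2. PTOX2 lay 0.30 above the median without WT 4 or without WT 5.

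Line E10 could not be resolved for either oxidase. Against WT 1 to 3 only 449 identifiers passed the filter on low counts, of which 0 were called (0% called, 6 at an unadjusted p under 0.05, 1 by DESeq2), and neither PTOX1 nor PTOX2 was among them. With no filter, edgeR gave -1.85 ± 0.78 for PTOX1 and -3.18 ± 1.04 for PTOX2 (log2 fold change ± SE, adjusted p = 0.379 for both), in a fit whose median over all identifiers was -2.42. With E10 summed to 1 library, both passed the filter, at -1.17 for PTOX1 and -2.42 for PTOX2. Both also passed it in a fit of all 12 libraries in 4 groups by genotype and title set. There E10 against WT 1 to 3 gave -1.35 ± 0.87 for PTOX1 and -2.65 ± 1.04 for PTOX2 (SE, edgeR adjusted p = 0.546 and 0.475). The difference between the E10 and the A2 and D2 effects was tested in the same 4-group fit. For it, 3 of 4915 identifiers passed (0.061% called, and 0 to 243 with single libraries left out). The difference of effects was -2.24 ± 1.20 for PTOX1 and -2.94 ± 1.35 for PTOX2 (log2, SE, edgeR adjusted p = 0.271 and 0.212), and in E10 it rested on 6 and 2 counts. With single libraries left out it ran from -2.77 to -1.67 for PTOX1. For PTOX2 it ran from -12.6 without PDSKO 1, which leaves E10 with 0 counts and a fitted value that is no bound, to -2.25.

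The balance between both oxidases within a library does not depend on the library total. PTOX2 made up 29.2% of the PTOX1 and PTOX2 counts in A2 (95% Wilson interval 21.4 to 38.5, 106 counts), 40% in D2 (16.8 to 68.7, 10 counts) and 25.0% in the summed E10 libraries (7.15 to 59.1, 8 counts). In WT it made up 66.1% in WT 1 (64.9 to 67.3), 36.4% in WT 2 (35.4 to 37.5), 30.9% in WT 3 (29.4 to 32.4), 47.8% in WT 4 (45.8 to 49.8), 45.2% in WT 5 (40.8 to 49.6) and 37.9% in WT 6 (32.6 to 43.4). The WT libraries differed among themselves well beyond counting error. The A2 share lay below all WT shares, while its interval reached those of WT 2, WT 3 and WT 6. The share averaged 19.9 ± 22.7% in PDSKO and 44.0 ± 12.4% in WT (SD, n = 6 each), and the exact permutation test (two-sided) gave p = 0.0649, or 0.195 adjusted over the 6 tests. This test and its versions with single libraries left out count each E10 library as a separate knockout, though all 4 are of 1 line. A version of the share test with E10 summed was not run. The PDSKO mean includes shares of 0% from PDSKO 2, 3 and 4, which rest on 2, 1 and 1 counts (Wilson upper limits 65.8 to 79.3%), and it lies below the 29.8% of the summed PDSKO counts (22.5 to 38.4). On the same zeros, without PDSKO 1 the difference was -30.2 points (exact permutation p = 0.0173), and without D2 it was -28.2 points, also with p under 0.05. Over libraries with at least 10 counts of the pair it was 34.6 ± 7.60% in A2 and D2 and 44.0 ± 12.4% in WT (SD, n = 2 and 6, exact permutation p = 0.393).

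**Figure D2:**
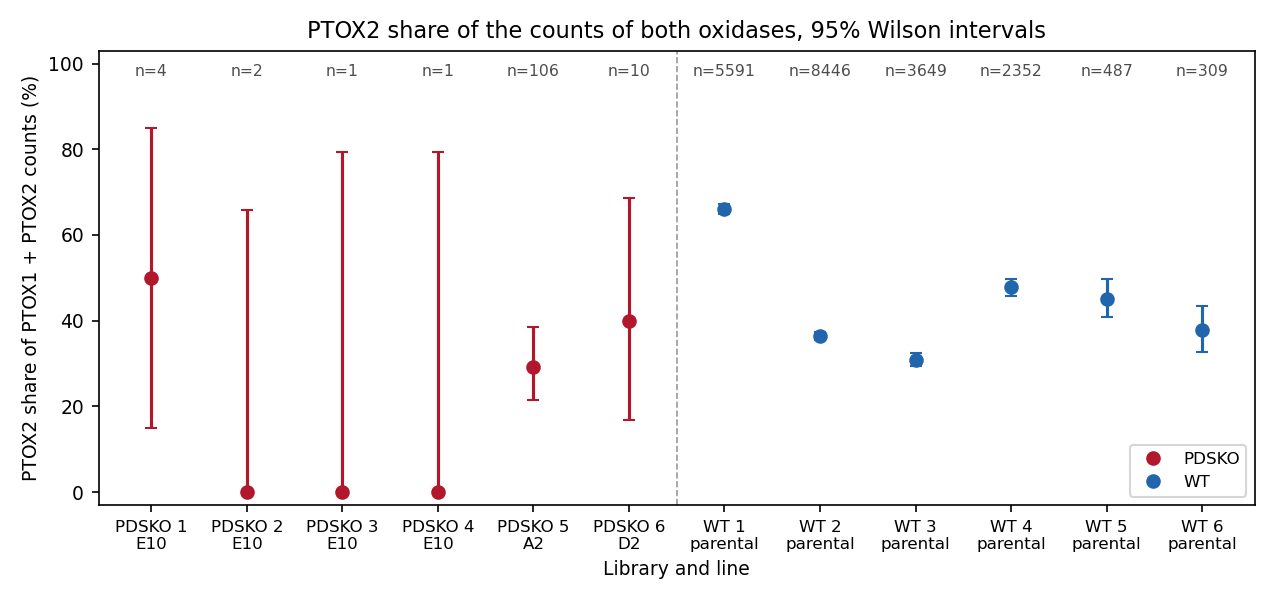
PTOX2 counts as a percentage of PTOX1 and PTOX2 counts in each library, with 95% Wilson intervals and the number of counts above each point. WT runs from 30.9% in WT 3 to 66.1% in WT 1, and A2 is at 29.2% from 106 counts.

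Neither oxidase passed between the parental sets, in a comparison that called many other identifiers. PTOX1 averaged 129.9 ± 59.6 CPM in WT 1 to 3 and 113.9 ± 20.9 CPM in WT 4 to 6 (SD, n = 3 each, exact permutation p = 0.7). PTOX2 averaged 95.9 ± 23.5 CPM in WT 1 to 3 and 87.2 ± 7.31 CPM in WT 4 to 6 (SD, n = 3 each, exact permutation p = 0.8), and 3 against 3 cannot go below 0.1. The edgeR test called 1451 of 13040 identifiers (11.1% called, 237 higher and 1214 lower in WT 1 to 3), and 3288 without WT 1. PTOX1 had a log2 fold change of -0.29 ± 0.43 (SE, 95% interval -1.25 to 0.66, adjusted p = 0.710) and PTOX2 of -0.22 ± 0.39 (interval -1.09 to 0.65, adjusted p = 0.763). The direction depended on scaling, since library totals alone gave 0.19 for PTOX1 and 0.14 for PTOX2, while the median over all identifiers was 0.43 there and 0.06 in the TMM-scaled fit. The share of PTOX2 in the pair was 44.5 ± 18.9% in WT 1 to 3 and 43.6 ± 5.14% in WT 4 to 6 (SD, n = 3 each, exact permutation p = 1.0).

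Both oxidases were abundant by rank, and PTOX2 was among the more even transcripts over WT. In WT, PTOX1 lay above 92.3 to 96.7% of all identifiers and PTOX2 above 92.4 to 96.0%. Among 5547 identifiers with at least 10 counts in every WT library, the SD of log2(CPM + 1) over the 6 WT libraries was 0.23 for PTOX2, with 2.72% of identifiers having a smaller one, and 0.53 for PTOX1, with 34.3% smaller. The median SD was 0.64. The highest WT level was 1.55 times the lowest for PTOX2 and 2.82 times for PTOX1. After TMM scaling the SD of PTOX2 was 0.38 with 14.9% of identifiers smaller, and that of PTOX1 was 0.50 with 30.4% smaller. AOX1, a mitochondrial alternative oxidase, had an SD of 0.24, and 0.22 after TMM scaling. The housekeeping gene CBLP had an SD of 2.03, with 98.4% of identifiers smaller. Of the carotenoid genes, ZEP1 (0.35, zeaxanthin epoxidase) was more even than PTOX1, while PDS1 (0.79), ZDS1 (1.11, zeta-carotene desaturase) and PSY1 (1.39, phytoene synthase) varied more.

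**Figure D3:**
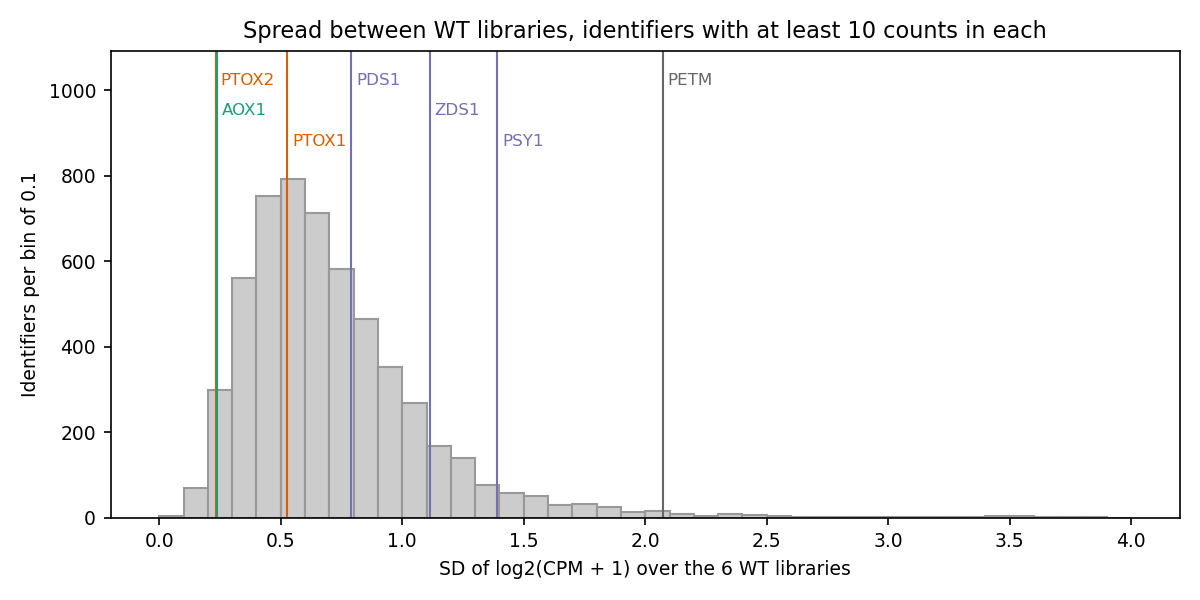
Histogram of the SD of log2(CPM + 1) over the 6 WT libraries for 5547 identifiers, in bins of 0.1, with lines at named genes. PTOX2 (0.23) and AOX1 (0.24) are at the low end, PTOX1 (0.53) is below the median of 0.64, and PDS1, ZDS1, PSY1 and PETM are above it.

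The identifiers most correlated with each oxidase over the 6 WT libraries are a description, chosen as the highest of 5547 Pearson correlations of log2(CPM + 1). For PTOX1 they were Cre12.g546452 (r = 0.998), Cre16.g661626 (0.992) and Cre06.g294100 (0.990), which like PTOX1 were lowest in WT 1 and highest in WT 3. For PTOX2 they were Cre13.g573351 (r = 0.986), Cre13.g591851 (0.985) and Cre11.g467573 (0.985), which like PTOX2 were highest in WT 1. The size of a change does not enter r. PTOX2 ran from 79.4 to 123 CPM over WT, and Cre13.g591851 from 25.7 to 55.0 CPM. Cre13.g573351 ran from 436 to 3921 CPM and Cre11.g467573 from 255 to 5145 CPM. Values of 6 libraries from 2 title sets enter each r, and WT 1 sits at the extreme of both patterns.

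The plastoquinone pool is filled and emptied by other enzymes, and 20 of their genes, with carotenoid genes and other oxygen-reducing routes, give the setting of the pair. In PDSKO against WT, 14 of the 20 were tested and none passed (0% called over all identifiers). Their median log2 fold change was -0.82 with 12 of 14 negative, beside -0.38 and 61.7% negative over all identifiers. In A2 and D2 against WT 4 to 6, 17 were tested, 1 passed as higher and 2 as lower, beside 10.9% called over all identifiers. Their median was -1.31 beside -0.92. The higher one was STT7, the kinase of state transitions, at 225 CPM in A2 (397 without Cre07.g323800) and 832 CPM in D2, against 42.2, 14.5 and 38.8 CPM in WT 4 to 6 (log2 fold change 3.28 ± 0.88 SE, edgeR adjusted p = 0.029). The lower ones were PDS1 and PCY1. PDS1 had 0 counts in A2 and in D2 (edgeR adjusted p = 0.0279). That is at least 8.18-fold lower than in WT 4 to 6 when a floor of 3 counts is set over A2 and D2 together, or at least 5.04-fold without Cre07.g323800. Most of the total behind this floor is of A2. The 0 of D2 had a 95% Poisson upper limit of 102 CPM, above the 74.9, 21.6 and 47.4 CPM of WT 4 to 6, so loss in D2 alone was not detectable. PCY1, plastocyanin, was at 105 CPM in A2 (186 without Cre07.g323800) and 3549 CPM in D2, against a mean of 6311 ± 3068 CPM in WT 4 to 6 (SD, n = 3, log2 fold change -2.86 ± 0.89 SE, edgeR adjusted p = 0.047). The calls of STT7 and PDS1 ended when WT 4, 5 or 6 was left out (edgeR adjusted p 0.0813 to 0.144 for STT7 and 0.0582 to 0.0970 for PDS1), and that of PDS1 also without A2. Over the other alternative edgeR and DESeq2 fits, the highest adjusted p was 0.820 for STT7 and 0.827 for PDS1, so each call also ended in at least 1 of those. The PCY1 call also ended without WT 4, 5 or 6 or without A2, as well as with DESeq2, with either other scaling and without Cre07.g323800.

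Of the other oxygen-reducing routes, AOX1 stood at 29.5 CPM in A2 (51.9 without Cre07.g323800) and 0 in D2, against 119.4 ± 23.9 CPM in WT 4 to 6 (SD, n = 3, edgeR adjusted p = 0.112). FLVB, a flavodiiron protein, was at 4.21 CPM in A2 and 27.7 CPM in D2, from 2 and 1 counts, against 46.7 to 86.2 CPM in WT 4 to 6 (edgeR adjusted p = 0.067). NDA2, the type II dehydrogenase that reduces plastoquinone in Chlamydomonas, was at 4.21 CPM in A2, below all of WT 4 to 6, and at 27.7 CPM in D2, above them, again from 2 and 1 counts, against 22.9, 14.9 and 10.8 CPM in WT 4 to 6, and did not pass. In the main edgeR fit of all 5 libraries, none of these 3 genes was called, nor was either plastid oxidase. AOX1 passed when A2 or D2 was left out, and FLVB when D2 was left out or with DESeq2.

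**Figure D4:**
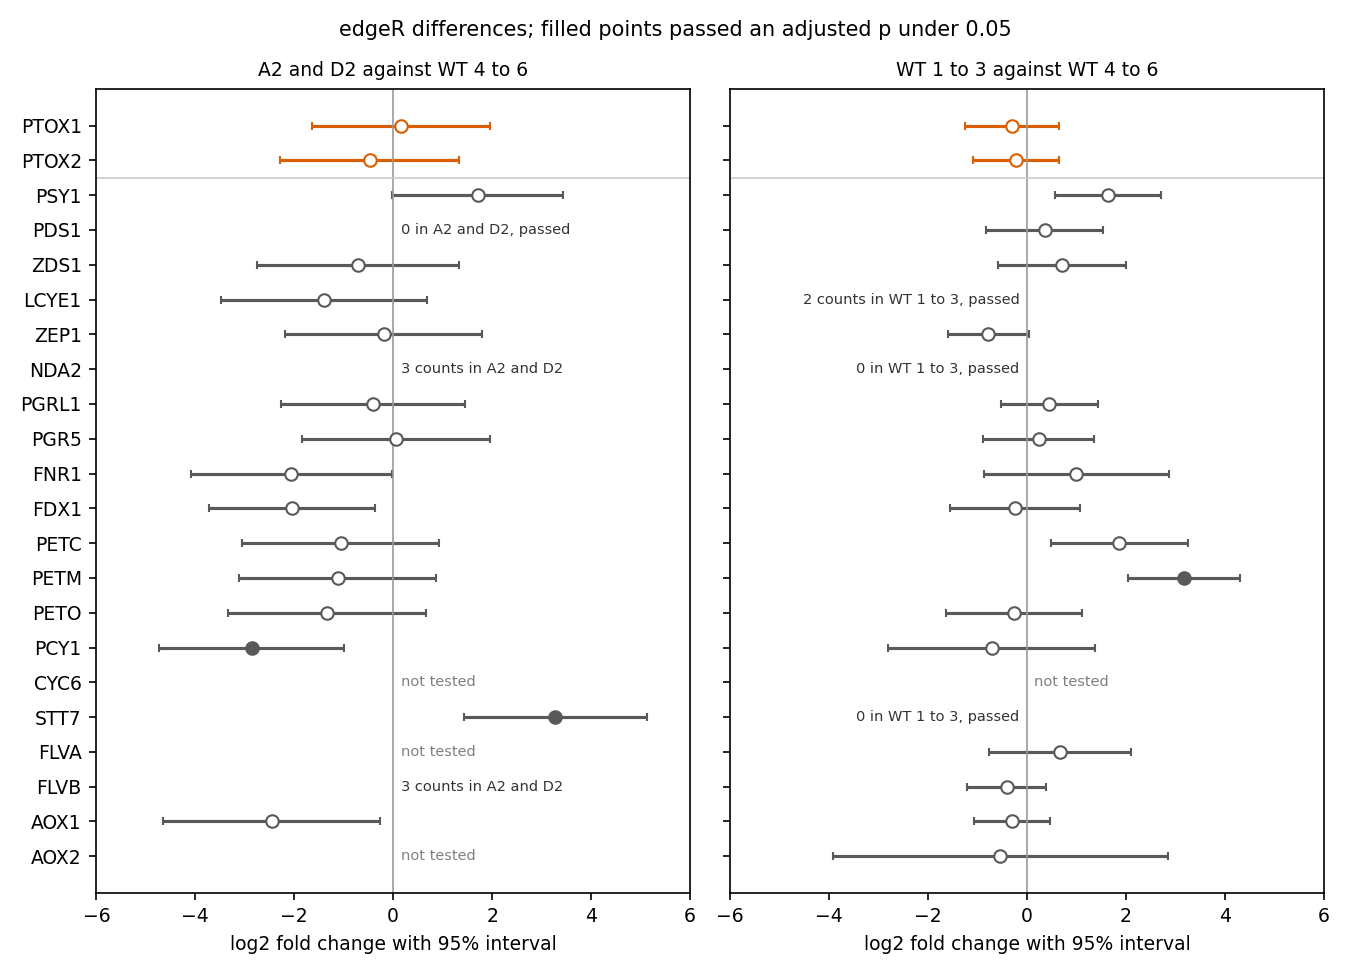
Log2 fold changes with 95% intervals from edgeR for the oxidases (orange) and 20 genes of connected routes (grey), A2 and D2 against WT 4 to 6 on the left and WT 1 to 3 against WT 4 to 6 on the right, with text in place of a point for genes with 3 or fewer counts in the first-named group. PTOX1 and PTOX2 are at 0.15 and -0.47 on the left and at -0.29 and -0.22 on the right, each with an interval that contains 0. On the left these intervals are wide, from -1.65 to 1.95 and from -2.29 to 1.34.

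Between the parental sets, 19 of the 20 genes were tested, 1 passed as higher and 3 as lower, beside 11.1% called over all identifiers. PETM, a small subunit of the cytochrome b6f complex that oxidises plastoquinol, was at 2996, 2518 and 3122 CPM in WT 1 to 3, against 428, 139 and 195 CPM in WT 4 to 6 (log2 fold change 3.18 ± 0.51 SE, edgeR adjusted p = 0.002). NDA2 and STT7 were at 0 in all of WT 1 to 3 and LCYE1, lycopene epsilon-cyclase, had 2 counts there, while all 3 were counted in each of WT 4 to 6. Over all identifiers, 290 were at 0 in WT 1 to 3 with at least 10 counts in each of WT 4 to 6, and 34 showed the reverse. Of the 290, 289 were also at 0 in all E10 libraries and 237 were counted in A2 or D2. Of the 34, 6 were counted in E10 and 26 were at 0 in A2 and D2. The E10 libraries together held only 81142 counts, so a 0 for any 1 identifier in them can come from depth alone. Whether depth accounts for all 289 was not tested. D2, with 36062 counts, held 30 counts of STT7, 1 of NDA2 and 0 of LCYE1, while E10 held 0 of each. Over the 290, the zeros of the mutants mostly went with the title set. Of the 34, most were at 0 in E10 too, although WT 1 to 3 counted them. The cause was not tested, and a difference in counting between the sets cannot be told apart from a difference in the cells for NDA2, STT7 and LCYE1. Neither PTOX1 nor PTOX2 was among them.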

How the data were processed

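Per the labels' protocols, the authors made CEL-Seq libraries, which barcode samples at reverse transcription and read transcript 3′ ends, mapped read 2 with BWA MEM (reference transcriptome 281_v5.6), dropped reads with several mapping places and counted with MapAndGo. Dropping such reads can lower genes with near-identical copies. The submitters' processing notes also name edgeR. The deposited values are raw counts per identifier, 17744 in 12 columns, with no normalization, and 0 columns were left unmapped. The handling of molecular identifiers is not given in the sources. Columns were matched to samples by title, and the strain number in the titles of WT 1 to 3 is not that of the label. Symbols come from general knowledge. In the RefSeq gene table (assembly v5.5) each oxidase has 1 transcript and 0 overlapping gene models.

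CPM is counts per 1000000 of the library total. The count test was edgeR 4.0.16 (R 4.3.3, filterByExpr, TMM, estimateDisp, glmQLFit, glmQLFTest, two-sided, Benjamini-Hochberg at 0.05), without batch terms. Single values used exact permutation of group means (Python 3.11.15). Alternatives were DESeq2 1.42.0, DESeq2-type (RLE) and total-count scaling, no filter, title set as a covariate, a replicate block, E10 summed, Cre07.g323800 removed and each library left out. Leaving out or summing E10 in the CPM tests, and TMM scaling of the WT spread, were added after seeing the data. The scripts were tested on simulated data. No 2 libraries agreed within sampling noise (lowest chi-square per degree of freedom 3.95). Labels call the samples independent, without naming separate cultures, so the spread behind each p-value may be technical. The oxidases, the gene lists and the tests were chosen with earlier results of these data known. Named are both oxidases, the list genes a result turns on, and the 3 identifiers most correlated with each oxidase over WT.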

Additional observations from a re-analysis of the deposited data

Results flagged for a closer look

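In each group of 4 to 10 libraries, a level or share was marked when the gap of its highest or lowest library to the next one took an unusually large part of the group's range. Of 9 such sets, 4 were marked. Chance marks about 1 in 20 for normally distributed values, a rate that does not hold for the few counts of E10. The E10 marks of PTOX2 level and share rest on the same 2 counts, so the 4 marks are not independent. Whether 4 of 9 is an excess was not tested. PTOX1 in E10 was marked for PDSKO 2, at 319 CPM, which is 2 counts in the shallowest library. PTOX2 in E10 was marked for PDSKO 1, at 49.5 CPM, and the PTOX2 share of the pair in E10 for the same library, at 50%, since it is the only E10 library with PTOX2 counts, 2 of them. PTOX2 in WT was marked for WT 1, at 123 CPM from 3696 counts, against 79.4 to 95.5 CPM in the other WT libraries.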

How the results depend on the processing

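No alternative called either oxidase in an edgeR or DESeq2 fit. The adjusted p stayed at 0.127 or above for PDSKO against WT, 0.470 for A2 and D2, and 0.180 between WT sets. Depth limits E10, which holds 8 counts of the pair, and A2 and D2 have 1 library each.

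For PDSKO against WT, calls numbered 164 with RLE scaling, 4 with totals alone, 1257 without a filter, 358 with DESeq2, 1 with E10 summed, 0 with title set as a factor and 0 to 632 with single libraries left out. PTOX1 turned to 0.69, 0.10, 0.74 (DESeq2) and 0.080 (E10 summed), and ranged from -1.13 to 0.17 with libraries left out, positive without WT 2, 3, 5 or 6. PTOX2 was 0.0039 with DESeq2 and -1.85 to -0.60 with libraries left out. For A2 and D2, calls numbered 512 with totals alone, 1470 without a filter and 13 (without WT 4) to 2486 (without D2). PTOX1 was -0.10 without a filter and ranged from -0.51 (without A2) to 0.57. PTOX2 was 0.055 with RLE, 0.069 with DESeq2 and 0.29 in the 4-group fit, and ranged from -0.69 to 0.059, positive without WT 4 or 5. E10 had 1 call with DESeq2 and 0 to 1 with libraries left out.

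Between WT sets, calls numbered 2235 with DESeq2, 91 in the 4-group fit (where the adjusted p of PETM was 0.0642) and 1119 to 3288 (without WT 1) with libraries left out. Totals alone gave 0.19 for PTOX1 and 0.14 for PTOX2, and PTOX2 ranged from -0.60 to 0.028 with libraries left out. The interaction had 0 calls with RLE, 42 without a filter and 0 to 243 with libraries left out.

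In the permutation tests, the PTOX1 difference between PDSKO and WT was -0.12 on log2(CPM + 1) and -23.8 to 30.0 CPM with libraries left out, negative without PDSKO 2. That of PTOX2 was -47.4 CPM without Cre07.g323800, -3.46 without E10, -24.6 with E10 summed and -68.6 to -46.4 with libraries left out (exact permutation p 0.00216 to 0.0628). TMM scaling turned the difference between WT sets to -25.0 CPM for PTOX1 and -14.4 for PTOX2, which ranged from -7.82 to 49.4 and from -4.69 to 17.0 with libraries left out. The share tests of PDSKO with single libraries left out count each E10 library as a separate knockout. The share difference was -30.2 to -19.8 points for PDSKO (p under 0.05 without PDSKO 1 or 6, lowest exact permutation p 0.0173) and -9.93 to 7.67 between WT sets. The cause of these changes was not tested.

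Whether replicate numbers pair the samples could not be settled. PDSKO 4 and WT 4 deviated oppositely (r = -0.248), but they belong to different title sets, so this r cannot decide it. The other same-numbered pairs had r from 0.181 to 0.508. PDSKO 1 had r = 0.508 with WT 1 and -0.204 to 0.0538 with the other WT libraries. PDSKO 2, 3, 5 and 6 had an r about as high with another WT library of their own title set. With a replicate block, 69 identifiers were called for PDSKO against WT (PTOX1 -0.45, PTOX2 -1.36) and 10 for A2 and D2, where PTOX2 was 0.049.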

Other observations

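WT 1, which had the highest PTOX2 level and the lowest PTOX1 level of the WT libraries, was also the only WT library in which CYC6, cytochrome c6, was counted. CYC6, a copper-responsive electron carrier that can replace plastocyanin, had 1025 counts (34.1 CPM) in WT 1 and 0 counts in WT 2 to 6. Among PDSKO libraries it had 2 counts (49.5 CPM) in PDSKO 1 and 0 in the others. PCY1 stood at 10878 CPM in WT 1, against 985 to 9827 CPM in WT 2 to 6. Among PDSKO libraries it stood at 7841 CPM in PDSKO 1, against 105 to 3549 CPM in the others. This was noticed after the values were seen. It rests on 1 WT library and, in PDSKO 1, on 2 counts of CYC6. Its part in the oxidase levels was not tested.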
